A study of Mus musculus with 18 samples.

Results

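The myogenic determination factors are a small set of genes that commit cells to skeletal muscle, together with genes that act just before and just after them. The set held 10 of the 35275 genes in the read-count table: *Myf5*, *Myf6*, *Myod1*, *Myog*, *Pax3*, *Pax7*, *Msc*, *Mymk*, *Mymx* and *Megf10*. Of these, 8 were found by their name and 2 by their Ensembl identifier, since the table lists *Mymk* under its older name *Tmem8c* and *Mymx* as *Gm7325*. The members were chosen by their levels in the genotypes as seen in earlier results of these data, so the difference between genotypes is given as a description of each member, without a test.

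Mouse malignant peripheral nerve sheath tumor (MPNST) lines of 2 genotypes were compared, *Nf1*/*p53* dKO and *Nf1*/*Cdkn2a* dKO, where dKO is the combined knockout of both genes. Each genotype had 3 lines with 3 cultures each, which gave 18 libraries from 6 lines. The tumors were raised in wild-type 129 Sv/Jae mice, whose ages were not given, by an injection into the sciatic nerve of an adenovirus with Cas9 under the CMV promoter. Guides to *Nf1* and to p53, whose mouse gene is *Trp53*, gave the *Nf1*/*p53* dKO, and guides against *Nf1*, p16 and p19, both encoded by *Cdkn2a*, gave the *Nf1*/*Cdkn2a* dKO. CMV is active in many cell types, so the edited cell was not restricted to one type, and each line came from 1 tumor and was passaged repeatedly before use. All cultures grew untreated in DMEM with serum, and no line without the knockouts was measured.

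Skeletal muscle identity is set by basic helix-loop-helix factors that bind the E-box, a short DNA motif, as partners of E-proteins. *Myf5* and *Myod1* act first and commit progenitors, which are often marked by *Pax3* or *Pax7*, and *Myog* and *Myf6* act later, as myoblasts leave the cell cycle, fuse and build the contractile apparatus. None of these genes is a usual marker of Schwann cells, the glia that wrap peripheral nerve fibers.

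The 4 factors are close relatives, and identical stretches of their transcripts bear on how reads can be assigned between them. The longest run shared by *Myf5* and *Myod1* in GENCODE M21 transcripts was 26 bases, and the longest shared by *Myod1* and *Myog* was 21 bases. In both lines below, capitals mark the bases that are identical in the pair.

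*Myf5* and *Myod1*: CGCAAGGCCGCCACCATGCGCGAGCG

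*Myod1* and *Myog*: AAAGTGAATGAGGCCTTCGAG

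The other pairs of the 4 factors shared at most 14 bases. Whether single reads were assigned between the factors was not tested.

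The *Myog* promoter is a textbook target of the myogenic factors, and its proximal sequence is shown beside that of *Myf5*, the factor found in every *Nf1*/*p53* dKO culture. Both come from RefSeq (GRCm38.p6), end at the base before the start annotated in GENCODE M21, and are written 5′ to 3′ with E-boxes (CANNTG) in capitals. The RefSeq table held promoter windows for 3 of the members.

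*Myog*, chr1:134289754-134289988, plus strand: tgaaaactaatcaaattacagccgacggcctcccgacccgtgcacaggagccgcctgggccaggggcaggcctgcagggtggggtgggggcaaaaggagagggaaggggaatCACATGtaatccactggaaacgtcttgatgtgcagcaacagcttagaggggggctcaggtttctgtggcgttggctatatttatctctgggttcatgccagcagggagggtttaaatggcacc

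*Myf5*, chr10:107486135-107486384, minus strand: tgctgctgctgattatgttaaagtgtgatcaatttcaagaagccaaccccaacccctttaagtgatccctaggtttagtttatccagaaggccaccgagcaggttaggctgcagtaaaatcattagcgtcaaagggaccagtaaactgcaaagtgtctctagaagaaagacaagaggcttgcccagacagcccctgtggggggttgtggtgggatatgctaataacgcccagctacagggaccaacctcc

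The *Myog* window of 235 bases held 1 E-box, CACATG, which lay 118 to 123 bases before the annotated start. The *Myf5* window of 250 bases held none. An E-box on either strand was present in 64.1% of all promoter windows of 235 bases and in 66.2% of those of 250 bases. TATAAA was in neither window (11.9% and 12.4% of all windows of these lengths). Nor was an exact match to the MEF2 motif, searched as YTAWWWWTAR (2.81% and 2.92%). In this pattern Y is C or T, W is A or T, and R is A or G. The stretch ctatatttat of the *Myog* window differs from the pattern only at its last base and was not counted.

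Total counts ran from 19560535 to 28312207 per library. Levels are given as CPM, which are read counts relative to the total of the library (per 1000000 counts), scaled by TMM factors of 0.939 to 1.06, and the cultures of a line were summed to give 1 value per line. *Trp53* was lower in the *Nf1*/*p53* dKO, with line levels of 58.6 to 94.1 CPM against 185 to 247 CPM (adjusted p = 0.0361, edgeR). *Nf1* (12.7 to 70.0 CPM) and *Cdkn2a* (42.9 to 391 CPM) were transcribed in all 6 lines, and gene counts do not read the edited bases. The labels call the cells mesenchymal. The fibroblast genes *Col1a1* (301 to 4170 CPM) and *Col3a1* (686 to 1257 CPM) were high in every line. Other genes of the same list of 8 did not overlap between genotypes, *Dcn* lying at 104 to 934 CPM in the *Nf1*/*p53* dKO lines against 3.40 to 6.59 CPM and *Lum* at 1.41 to 65.3 CPM against at most 0.0433 CPM, and their part in the genotype differences of the members was not tested. By contrast, *Sox10*, which defines the Schwann lineage, was at most 0.0989 CPM. The most abundant of the 12 Schwann cell genes were *Gap43* (4.65 to 59.6 CPM) and *Ngfr* (0.0321 to 64.3 CPM), those of the 8 leukocyte genes *Cd68* (1.96 to 7.14 CPM) and *Csf1r* (0.721 to 3.17 CPM), and those of the 6 endothelial genes *Cdh5* (0.166 to 1.69 CPM) and *Tek* (0.0641 to 1.08 CPM).

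One group of libraries stood apart on markers of differentiated muscle. Transcripts of adult fast fibers, among them *Myh4* (a fast myosin heavy chain), *Ckm* (muscle creatine kinase), *Pvalb* and *Tnni2*, were prominent in 12 libraries, each with over 50 *Myh4* counts, the 9 of the *Nf1*/*p53* dKO and the 3 of *Nf1*/*Cdkn2a* dKO line 1. *Myh4* had 96 to 708 counts in the *Nf1*/*p53* dKO libraries, 325, 237 and 109 counts in the cultures of *Nf1*/*Cdkn2a* dKO line 1, and 2 counts in all in the cultures of lines 2 and 3. Across these 12 libraries the ratio of *Ckm* to *Myh4* counts ran from 0.0734 to 0.165, that of *Pvalb* to *Myh4* from 0.0863 to 0.302, and that of *Tnni2* to *Myh4* from 0.0833 to 0.455. Not all genes of fast fibers were found, as *Tnnc2* (fast troponin C) had 0 counts in every line of both genotypes. *Myh2*, another fast myosin, was at most 0.138 CPM in any line. The summed level of all 23 differentiated muscle genes was 54.8, 102 and 80.5 CPM in *Nf1*/*p53* dKO lines 1, 2 and 3. In *Nf1*/*Cdkn2a* dKO line 1 the sum was 38.7 CPM, and in lines 2 and 3 it was 5.82 and 11.3 CPM. The most abundant were *Ttn* (0.937 to 23.9 CPM) and *Acta1* (0.577 to 28.5 CPM), 1 of the 23 was at 0 in every *Nf1*/*p53* dKO line, and 9 of 23 were higher in all *Nf1*/*p53* dKO lines than in any *Nf1*/*Cdkn2a* dKO line, beside 16.6% of the 15207 genes tested between genotypes.

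*Myf5*, one of the first myogenic factors of the embryo, was detected in all 9 *Nf1*/*p53* dKO cultures at nearly the same level. Its counts were 626, 867 and 682 in line 1, 553, 591 and 566 in line 2, and 633, 688 and 678 in line 3. In the *Nf1*/*Cdkn2a* dKO it had 0 counts in 8 cultures and 1 count in the remaining culture, from line 3. The groups did not overlap. Levels averaged 26.6 ± 2.12 CPM (SD, n = 3 lines) in the *Nf1*/*p53* dKO, and the ratio to the *Nf1*/*Cdkn2a* dKO was 5217, with a 95% counting interval of 936 to 206108 that rests on that 1 count. In bulk RNA, fewer cells of a type and less RNA per cell cannot be told apart.

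*Myf5* and the adult fiber transcripts were both present in every *Nf1*/*p53* dKO library, where *Myh4* had 96 to 708 counts. In *Nf1*/*Cdkn2a* dKO line 1, *Myf5* had 0 counts in each of the 3 cultures, where *Myh4* had 109 to 325. In *Nf1*/*p53* dKO line 2, *Myh4* counts were 708, 199 and 96 while *Myf5* counts were 553, 591 and 566. The origin of the fiber transcripts and their part in the *Myf5* counts were not tested.

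**Figure D1:**
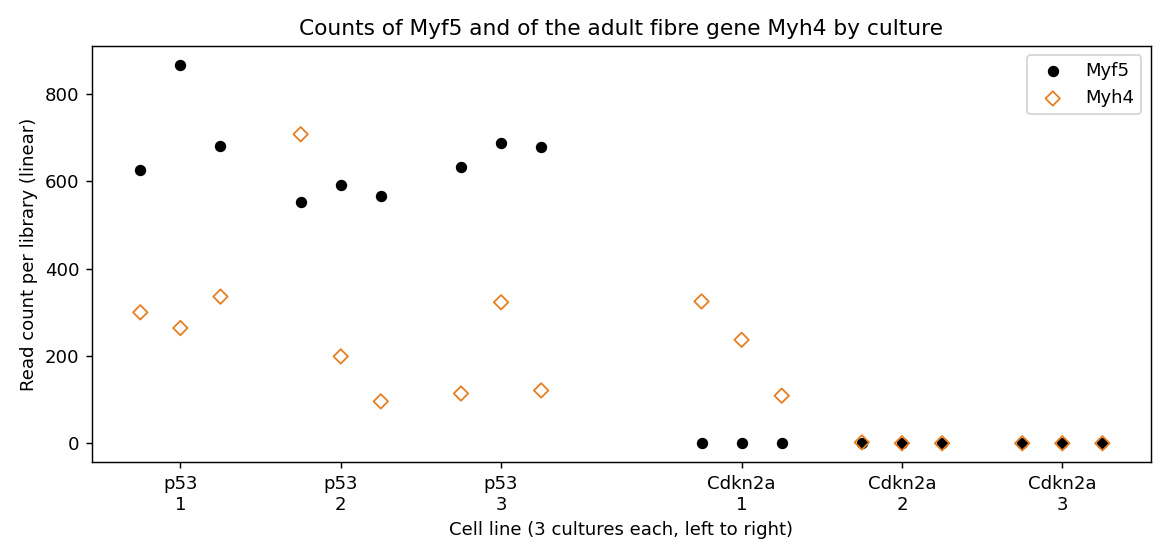
Read counts per library (vertical axis, linear) of *Myf5* (black circles) and *Myh4* (open diamonds) in the 3 cultures of each of the 6 lines (horizontal axis). *Myf5* counts lie between 553 and 867 in the *Nf1*/*p53* dKO and at 0 in *Nf1*/*Cdkn2a* dKO line 1, where *Myh4* counts reach 325.

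Within the *Nf1*/*p53* dKO, *Myf5* differed little between lines. Line levels were 28.02, 24.2 and 27.6 CPM for lines 1, 2 and 3, a ratio of highest to lowest of 1.16, and the difference between lines did not pass the test (adjusted p = 0.137, quasi-likelihood test of edgeR, Benjamini-Hochberg). Over all 14690 genes tested this way, 73.2% differed between the 3 *Nf1*/*p53* dKO lines and 56.8% between the 3 *Nf1*/*Cdkn2a* dKO lines. Of the members, 5 passed the filter for this test, and 4 of them differed between the *Nf1*/*p53* dKO lines. For *Myf5*, the cultures of lines 1 and 3 overlapped and those of line 2 lay below both. These p-values measure line differences against the spread between cultures of 1 line, which may be technical.

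*Myod1*, which can convert fibroblasts to myoblasts, differed widely between the lines. Its counts were 43, 39 and 54 in *Nf1*/*p53* dKO line 1, 0, 7 and 12 in line 2, and 4395, 5467 and 4852 in line 3. All 9 *Nf1*/*Cdkn2a* dKO cultures were at 0. Line 3 stood far above the others at 203 CPM, against 1.75 CPM in line 1 and 0.269 CPM in line 2, 116-fold and 758-fold higher, and the 3 lines did not overlap in their cultures (adjusted p = 2.89e-19, edgeR's test between lines). Read against a floor of 3 counts over all *Nf1*/*Cdkn2a* dKO cultures, 0.0153 CPM, *Myod1* was at least 13310-fold higher in line 3, at least 115-fold higher in line 1 and at least 17.6-fold higher in line 2. The genotype mean of 68.5 ± 117 CPM (SD, n = 3 lines) rested on line 3, which held 14714 of the 14869 counts.

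Per length of exon, *Myf5* and *Myod1* changed places between lines. *Myf5* stood at 13.5, 11.6 and 13.3 CPM per kb in *Nf1*/*p53* dKO lines 1, 2 and 3, and *Myod1* at 0.941, 0.144 and 109 CPM per kb. Of the summed level of *Myf5*, *Myf6*, *Myod1* and *Myog* on this scale, *Myf5* made up 91.2% in line 1 and 97.0% in line 2, and *Myod1* made up 88.6% in line 3. The sum was 14.7, 12.0 and 123 CPM per kb in these lines and at most 0.0818 CPM per kb in an *Nf1*/*Cdkn2a* dKO line.

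*Myog*, the factor that drives myoblasts into differentiation, was low and highest in *Nf1*/*p53* dKO line 3. Its counts were 3, 4 and 4 in line 1, 3, 0 and 1 in line 2, and 31, 29 and 17 in line 3, and 0 in every *Nf1*/*Cdkn2a* dKO culture. Line 3 reached 1.06 CPM, 7.51-fold above line 1, and did not overlap the other lines (adjusted p = 1.13e-04, edgeR's test between lines). *Myog* passed the filter on low counts only through line 3, so its call says little beyond these values. Against the floor, it was at least 69.7-fold higher in line 3 than in the *Nf1*/*Cdkn2a* dKO, at least 9.27-fold in line 1 and at least 3.70-fold in line 2.

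*Myf6*, the neighbor of *Myf5* on chromosome 10 and a factor of late differentiation and adult fibers, was near the limit of detection in both genotypes. Its counts were 11, 13 and 1 in *Nf1*/*p53* dKO line 1, 7, 1 and 8 in line 2, and 3, 7 and 1 in line 3. In the *Nf1*/*Cdkn2a* dKO they were 1, 1 and 1 in line 1, 1, 0 and 0 in line 2, and 3, 0 and 3 in line 3. Single cultures of the genotypes overlapped, whereas the summed lines did not, the *Nf1*/*p53* dKO lines lying at 0.152 to 0.322 CPM and the others at 0.0144 to 0.0938 CPM. The ratio of all counts was 4.61, with a 95% counting interval of 2.32 to 10.2.

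*Pax3* and *Pax7*, the paired-box factors of embryonic and adult muscle progenitors, were almost absent. *Pax3* had 7 and 4 counts in 2 cultures of *Nf1*/*p53* dKO line 2, 1 count in line 3 and none elsewhere. Line 2 was at least 10.2-fold above the floor. *Pax7* had 3 counts in all 18 libraries, 1 in *Nf1*/*p53* dKO line 1 and 2 in line 3, which is not above the floor, so no fold is given. *Msc* (musculin), a repressor that competes with the myogenic factors for E-boxes, had 6, 23 and 5 counts in *Nf1*/*p53* dKO line 1, 1, 0 and 2 in line 2, and 8, 9 and 13 in line 3, with 0 in every *Nf1*/*Cdkn2a* dKO culture, at least 28.6-fold and at least 27.1-fold higher in lines 1 and 3. It overlaps the antisense gene *Gm9947*, and counting by strand is not given in the sources used here, so reads of the pair cannot be told apart.

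*Mymk* (myomaker) and *Mymx* (myomixer), the membrane proteins that fuse myoblasts, were found almost entirely in *Nf1*/*p53* dKO line 3. *Mymx* had 15, 12 and 17 counts there and 0 in the other 15 libraries. *Mymk* had 7, 15 and 12 counts there, 1 count in line 2 and 0 elsewhere. Line 3 held 0.609 CPM of *Mymx* and 0.470 CPM of *Mymk*, at least 39.8-fold and at least 30.8-fold above the floor over the *Nf1*/*Cdkn2a* dKO. *Mymx* differed between lines (adjusted p = 7.70e-05, edgeR's test between lines), having passed the filter only through line 3, and *Mymk* was not tested.

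*Megf10*, a receptor of satellite cells that bears on their proliferation, was the one member expressed well above the floor in both genotypes. Its counts were 1034, 1594 and 1233 in *Nf1*/*p53* dKO line 1, 1225, 1254 and 1259 in line 2, and 488, 600 and 540 in line 3. In the *Nf1*/*Cdkn2a* dKO they were 44, 44 and 52 in line 1, 146, 112 and 97 in line 2, and 147, 138 and 167 in line 3. Even the lowest *Nf1*/*p53* dKO culture, at 20.7 CPM, lay above the highest *Nf1*/*Cdkn2a* dKO culture, at 7.74 CPM. Means were 41.7 ± 16.7 and 4.81 ± 2.43 CPM (SD, n = 3 lines each), a ratio of all counts of 8.64 with a 95% counting interval of 8.08 to 9.25.

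Within the *Nf1*/*p53* dKO, *Megf10* was lowest in line 3, where *Myod1* was highest. Line 3 stood at 22.5 CPM, against 49.7 CPM in line 1 and 52.8 CPM in line 2 (adjusted p = 3.95e-12, edgeR's test between lines). Its cultures lay below all those of lines 1 and 2, which overlapped each other. Line 3 was lowest in this way for 23.8% of all genes. The *Nf1*/*Cdkn2a* dKO lines also differed, with 2.24, 5.12 and 7.07 CPM in lines 1, 2 and 3, and none of the 3 overlapped in cultures (adjusted p = 3.96e-10, edgeR's test between lines). *Megf10* was the only one of the 5 members tested that differed between the *Nf1*/*Cdkn2a* dKO lines, the other 4 having at most 1 count there.

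**Figure D2:**
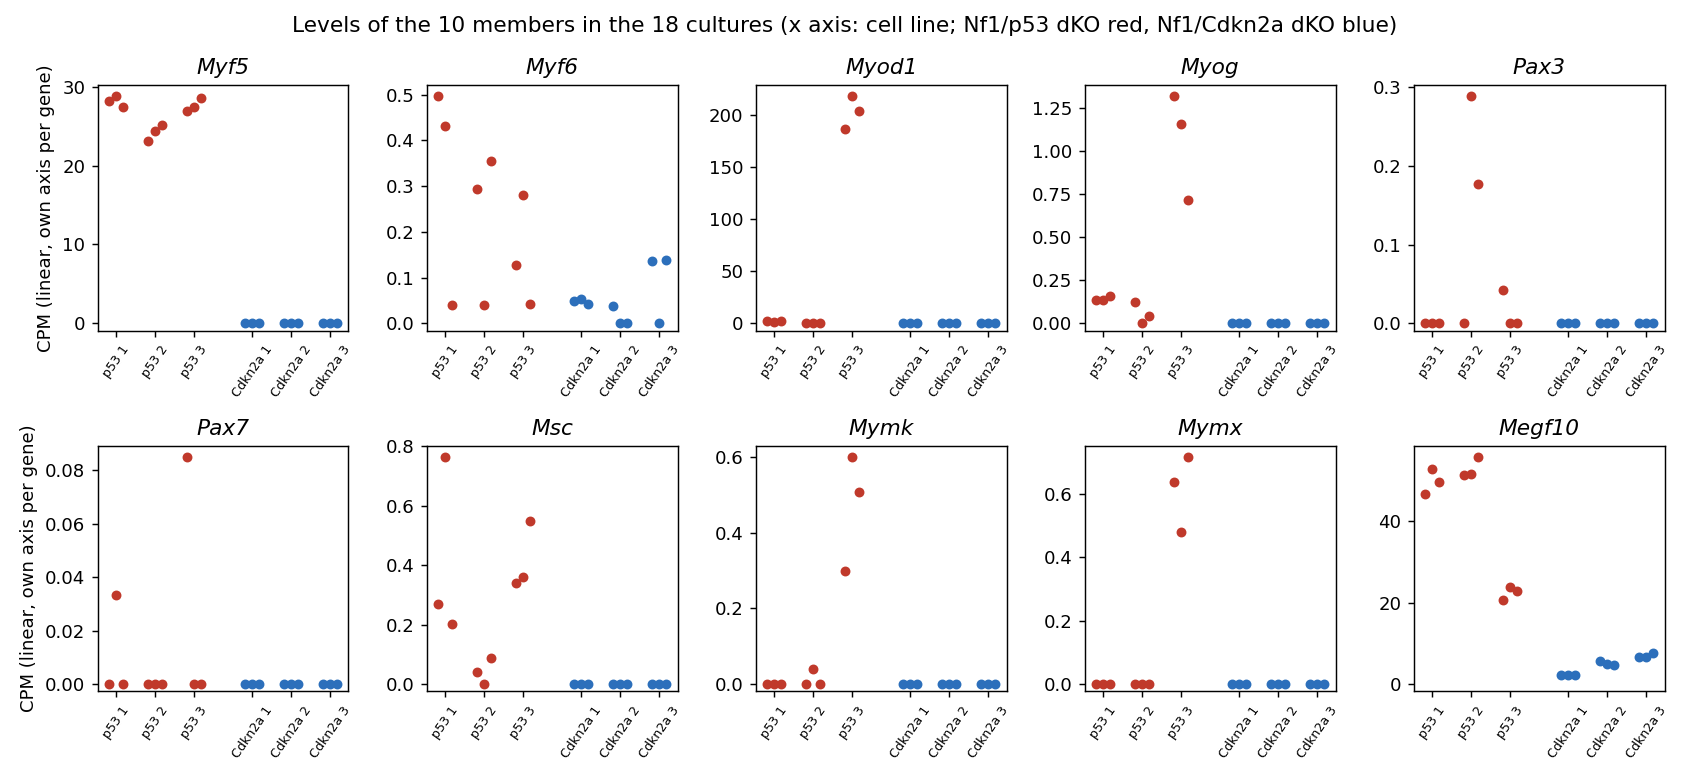
Level in CPM (vertical axis, linear, scaled separately for each gene) of the 10 members in the 3 cultures of each line (horizontal axis), with 1 point per culture, *Nf1*/*p53* dKO in red and *Nf1*/*Cdkn2a* dKO in blue. *Myf5* lies between 23.2 and 28.8 CPM in all 9 *Nf1*/*p53* dKO cultures, whereas *Myod1* reaches 187 to 218 CPM in line 3 alone.

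By position, *Myf5* (chr10:107482908-107486134) and *Myf6* (chr10:107492853-107494737) lie 6718 bases apart on the minus strand of GRCm38. The nearest protein-coding genes outside the pair are *Lin7a*, 61433 bases away, and *Ptprq*, a receptor phosphatase of inner ear hair cells, 22311 bases away. *Ptprq* had 1.52, 0.636 and 0.567 CPM in *Nf1*/*p53* dKO lines 1, 2 and 3, against 3.94, 62.6 and 11.5 CPM for the other genotype, the reverse of *Myf5* and without overlap, but the difference did not pass the test (log2 fold change 4.84 ± 1.13 SE, adjusted p = 0.0799, edgeR, n = 3 lines each). *Lin7a* overlapped between genotypes, from 0.127 to 0.271 CPM and from 0.0962 to 1.24 CPM (adjusted p = 0.364, edgeR). The other members lie elsewhere, with *Myog*, *Pax3* and *Msc* on chromosome 1, *Mymk* on chromosome 2, *Pax7* on chromosome 4, *Myod1* on chromosome 7, *Mymx* on chromosome 17 and *Megf10* on chromosome 18.

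Among 12275 other genes with a mean of at least 1 CPM, those most like each member across the 6 lines were found by Pearson's r of log2 CPM. For *Myf5* they were *Xdh* (r = 0.999), *Spg11* (r = 0.998) and *Srbd1* (r = 0.998). For *Myod1* they were *Mga*, *H2afz* and *Cyc1* (r = 0.997, 0.996 and 0.995), and for *Megf10* *Celf4*, *Rilpl1* and *Ada* (r = 0.999, 0.995 and 0.993). The likeness is one of shape, not of size. *Xdh* (xanthine dehydrogenase) was at 21.1 to 23.9 CPM in *Nf1*/*p53* dKO lines against 1.86 to 2.70 CPM, whereas *Spg11* moved only from a range of 20.8 to 21.4 CPM to one of 15.6 to 16.2 CPM. With 6 points that share libraries and so many genes searched, high values of r are given as a description.

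A further 91 genes of the myogenic program, in 6 lists, were compared between genotypes, of which 73 passed the filter on low counts. Of these, 6 were lower and 1 was higher in the *Nf1*/*Cdkn2a* dKO, beside 1.16% called lower and 0.638% called higher among all 15207 genes tested (quasi-likelihood test of edgeR, Benjamini-Hochberg, 6 lines). For 26 of the 73, every *Nf1*/*Cdkn2a* dKO line lay below every *Nf1*/*p53* dKO line, and for 15 every one lay above, beside 16.6% and 14.8% of all genes. Each of the 7 calls was lost when any 1 of the *Nf1*/*Cdkn2a* dKO lines was left out, where no gene of the lists passed in edgeR although 35 to 43 had an unadjusted p under 0.05. Over all genes, 2668 to 2802 had an unadjusted p under 0.05 in these fits. DESeq2 on all 6 lines called 34 of the listed genes. For 6 of the 73, every *Nf1*/*Cdkn2a* dKO line had under 10 counts. These passed the filter only through the *Nf1*/*p53* dKO and had to be lower in the *Nf1*/*Cdkn2a* dKO. Genes with only some of those lines under 10 counts also needed *Nf1*/*p53* dKO lines to pass, and are not among the 6.

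Of 11 upstream regulators tested, which are homeobox and other factors that act ahead of the myogenic factors, 2 fell and none rose (edgeR), 1 of the 2 having passed the filter only through the *Nf1*/*p53* dKO. The list's median log2 fold change was -1.34, against -0.02 over all genes tested.

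Progenitor surface and signalling genes fell for 2 of 10. *Cdh15* (M-cadherin), an adhesion protein of satellite cells and myoblasts, had line levels of 34.2, 27.9 and 97.6 CPM in the *Nf1*/*p53* dKO, against 0.273, 0.332 and 0.125 CPM (log2 fold change -7.76 ± 0.73 SE, adjusted p = 0.0191, edgeR). With 48 counts in the *Nf1*/*Cdkn2a* dKO, *Cdh15* needed *Nf1*/*p53* dKO lines, where it is high, to pass the filter. *Heyl*, a Notch target, had 280 counts against 2, a ratio of 124 with a 95% counting interval of 34.05 to 1030 (adjusted p = 0.0388, edgeR), and passed the filter only through the *Nf1*/*p53* dKO, where it is high. The median log2 fold change of the list was -1.07.

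Antagonists of the myogenic factors moved in both directions, with 1 of 19 higher and 1 lower. *Twist2*, a helix-loop-helix repressor of muscle differentiation, rose from line levels of 13.4, 14.5 and 8.88 CPM in the *Nf1*/*p53* dKO to 39.9, 39.0 and 46.5 CPM (log2 fold change 1.77 ± 0.23 SE, adjusted p = 0.0318, edgeR). *Mdfic*, a relative of the MyoD family inhibitor, fell from 73.6 ± 18.8 to 23.3 ± 6.92 CPM (SD, n = 3 lines, adjusted p = 0.0465, edgeR). The median log2 fold change of the list was 0.11.

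Among early differentiation and endplate genes, which build the neuromuscular junction and the first contractile structures, 1 of 11 passed the test. *Chrnd*, the delta subunit of the muscle acetylcholine receptor, was at 3.29, 16.7 and 40.0 CPM in *Nf1*/*p53* dKO lines 1, 2 and 3 and had 3 counts in all in the *Nf1*/*Cdkn2a* dKO, against 4329, a ratio of 1280 with a 95% counting interval of 438 to 6207 (adjusted p = 0.0388, edgeR). The other 10 did not pass. *Chrnd*, *Musk* and *Dok7* passed the filter only through the *Nf1*/*p53* dKO, which fixed their direction. *Des*, with 39 counts in the *Nf1*/*Cdkn2a* dKO, also needed *Nf1*/*p53* dKO lines to pass. The list's median log2 fold change of -3.27 is therefore given as a description only. *Musk*, the receptor kinase that organizes the endplate, had 1101 counts in the *Nf1*/*p53* dKO against 4 and an adjusted p of 0.0502 (edgeR).

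No E-protein or MEF2 gene passed the test between genotypes among 6 tested, and none of the 6 had an unadjusted p under 0.05 (edgeR). *Tcf4* had the highest log2 fold change, 0.31 ± 0.21 SE (adjusted p = 0.423, edgeR), and *Mef2d* the lowest, -0.26 ± 0.11 SE (adjusted p = 0.233, edgeR). E-proteins are the dimer partners of the myogenic factors, and *Tcf3*, *Tcf4* and *Tcf12* ran from 129 to 248 CPM over the 6 lines. DESeq2 on the 18 cultures, which counts cultures as separate samples, called *Mef2d* and *Tcf4*. None of 16 myoblast fusion helpers passed the test either, though 11 had an unadjusted p under 0.05 (edgeR), beside 3400 of all 15207 genes tested. In the same list 10 were higher in every *Nf1*/*Cdkn2a* dKO line, beside 14.8% of all genes. In that list *Jam2* had the highest log2 fold change, 1.62 ± 0.39 SE (adjusted p = 0.0826, edgeR), and *Nfatc2* the lowest, -1.51 ± 0.47 SE (adjusted p = 0.132, edgeR), and the median was 0.78. DESeq2 on the 6 lines and on the 18 cultures called both.

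**Figure D3:**
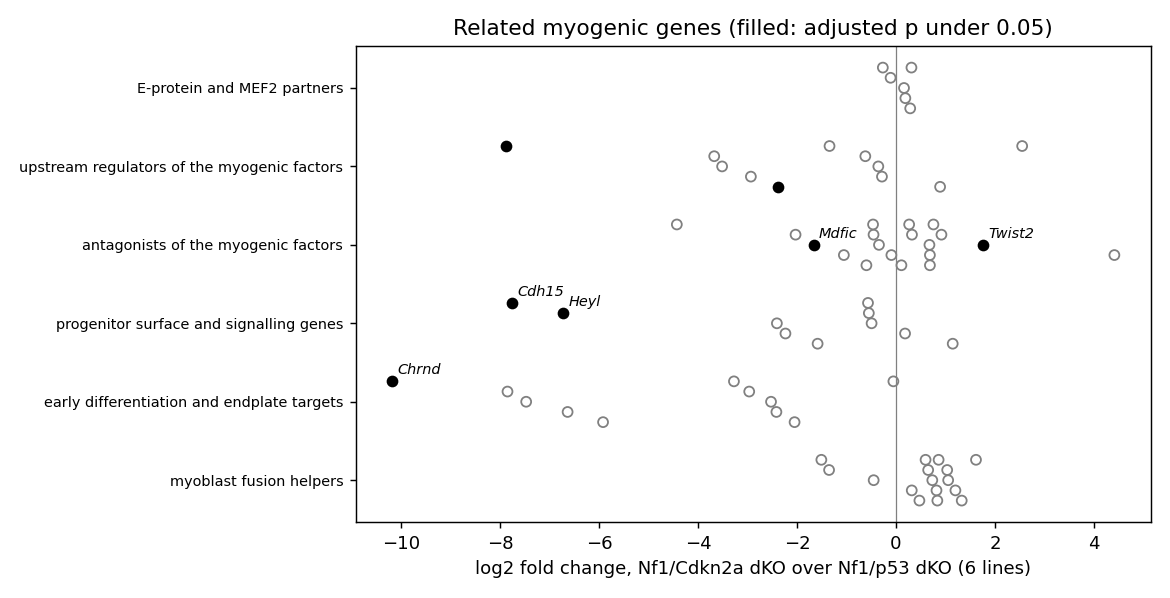
Log2 fold change of the *Nf1*/*Cdkn2a* dKO over the *Nf1*/*p53* dKO (horizontal axis) for the 73 tested genes of the 6 related lists (vertical axis), 1 point per gene, with filled points for an adjusted p under 0.05 in edgeR. Called genes are named except among the upstream regulators, and of the 7 called only *Twist2* lies above 0.

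The same lists were then described across the 3 *Nf1*/*p53* dKO lines, where *Myod1* was highest in line 3. This comparison of line 3 with the other lines was chosen after the values were seen and carries no test. All 13 tested early differentiation and endplate genes differed between the lines (edgeR), beside 73.2% of all genes, and 9 of the 13 were higher in every culture of line 3 than in any culture of lines 1 and 2, beside 23.6% of all genes. *Vgll2* and *Cav3* passed the filter only through 1 line each. The 9 were *Chrna1*, *Chrnb1*, *Chrnd*, *Chrng*, *Musk*, *Rapsn*, *Dok7*, *Des* and *Cav3*. *Rapsn*, which clusters acetylcholine receptors, was at 8.54, 3.73 and 67.1 CPM in lines 1, 2 and 3, and *Des*, the muscle intermediate filament desmin, at 21.6, 1.30 and 86.6 CPM. *Chrng*, the receptor subunit of the fetal muscle, was at 0.129, 1.07 and 7.83 CPM. *Cdkn1c*, a cell cycle inhibitor, ran the other way and was lowest in line 3, at 3.17 CPM against 10.1 and 14.6 CPM.

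Other lists were mixed in line 3. Of 13 upstream regulators, 3 were higher in every culture of line 3 than in any of lines 1 and 2, and 3 were lower. Of 11 progenitor genes, 3 were higher and 2 lower, beside 23.6% and 23.8% of all genes. Among the higher were *Eya1*, a transcriptional cofactor of early myogenesis, *Cdh15*, and *Cdon*, a co-receptor that promotes myogenesis (83.5 CPM against 15.1 and 28.6 CPM). Among the lower were *Eya2*, *Foxc2*, *Met* and *Spry1*. Of 19 antagonists, 10 were lower in every culture of line 3 than in any of lines 1 and 2, among them *Twist1*, *Twist2*, *Snai1*, *Snai2*, *Id3* and *Id4*, and 3 were higher, beside 23.8% and 23.6% of all genes. Of 17 fusion helpers, 7 were lowest in line 3 and 1 was highest. Marker lists moved in line 3 as well. Of 8 fibroblast genes, 4 were lowest there, among them *Col1a1* at 301 CPM against 1590 and 4170 CPM, and 2 were highest, *Dcn* at 934 CPM against 119 and 104 CPM and *Lum* at 65.3 CPM against 17.0 and 1.41 CPM. Of 23 differentiated muscle genes, *Actn3*, *Mb* and *Neb* were highest in every culture of line 3, 1 was lowest and the other 19, *Myh4* among them, overlapped. *Actn3* was at 15.5 to 16.3 CPM in the cultures of line 3 and at most 5.82 CPM in those of lines 1 and 2. The part of these genes in the differences of line 3 was not tested.

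In the *Nf1*/*Cdkn2a* dKO, several early differentiation and endplate genes had too few counts to differ between lines, among them *Vgll2* and *Cav3* at 0, so no count of calls is given. *Chrna1* was highest in line 1 there, at 27.2 CPM against 7.24 and 12.1 CPM, and *Des* too, at 0.529 CPM against 0.0288 and 0.0625 CPM. Line 1 is the line with adult fiber transcripts, and the part of these in the difference was not tested.

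**Figure D4:**
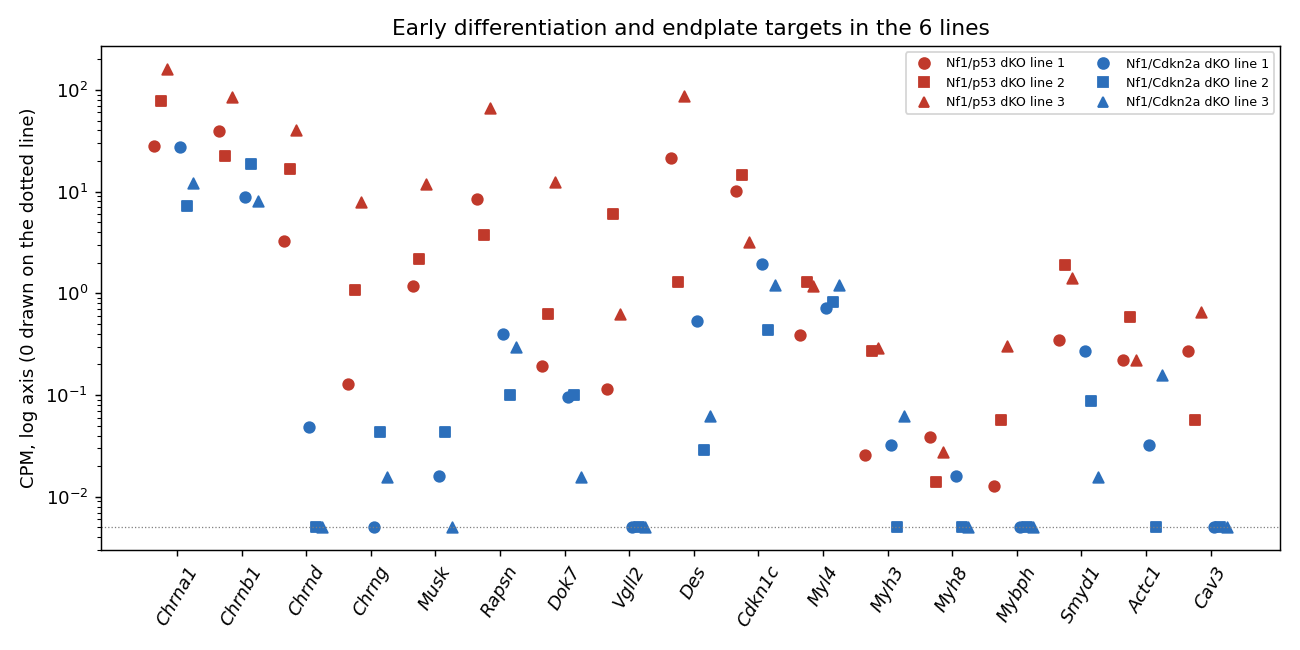
Level in CPM (vertical axis, logarithmic) of the 17 early differentiation and endplate genes (horizontal axis) in the 6 lines, with 1 point per line, color for genotype, symbol for line number and lines at 0 on the dotted line. *Nf1*/*p53* dKO line 3 (red triangles) lies highest for the acetylcholine receptor genes, *Musk*, *Rapsn*, *Dok7* and *Des*, for example at 67.1 CPM for *Rapsn*.

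*Nf1*/*p53* dKO line 2, the line with most *Pax3* counts, also held genes that line 1 and line 3 mostly lacked. *Lbx1*, a homeobox factor of migrating limb muscle progenitors, had 145, 151 and 248 counts in the cultures of line 2, at most 7 in any culture of lines 1 and 3, and 1 count in the whole *Nf1*/*Cdkn2a* dKO. *Vgll2*, a cofactor expressed in muscle progenitors, had 131, 150 and 145 counts in line 2, at most 27 in any other *Nf1*/*p53* dKO culture and 0 in the *Nf1*/*Cdkn2a* dKO. Both differed between the *Nf1*/*p53* dKO lines (adjusted p = 2.10e-11 and 1.19e-07, edgeR's test between lines). They were singled out after their values were seen, they passed the filter on cultures only through line 2, and both failed the filter of the comparison between genotypes.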

How the data were processed

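The 18 RNA-seq libraries came from 6 MPNST cell lines, each grown as 3 cultures. The deposited table holds whole-number read counts, not normalized by the authors. The submitters' processing notes name CASAVA, STAR (version 2.5), DESeq2 (version 1.14.1) and the builds GRCm38 and mm10; the counting tool, its strand setting and the annotation are not given in the sources used here.

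Counts of the 3 cultures of a line were summed, filtered with filterByExpr (minimum count 10, minimum total 15), scaled with TMM and compared between genotypes with edgeR's quasi-likelihood test (R 4.3.3, DESeq2 1.42.0, edgeR 4.0.16, limma 3.58.1; figures with matplotlib 3.10.9). Lines of a genotype were compared on the 18 cultures in 1 edgeR model. P-values were adjusted over all genes tested (Benjamini-Hochberg, threshold 0.05). The SE of a log2 fold change was derived from the test between genotypes, as its size over the square root of edgeR's F statistic. Gene positions and exon lengths come from GENCODE M21 (GRCm38), in which 34490 of the 35275 identifiers were found. A count of 0 allows up to 3 counts, taken over the 9 cultures of a genotype; intervals and floors cover counting error only. Counts varied beyond sampling noise among the cultures within a line (chi-square per degree of freedom 3.57 to 29.2), so none was merely the same library sequenced again. This spread does not tell separate cultures from separate library preparations.

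The members and the gene lists were chosen with earlier results of these data known. Named are all members, up to 3 called genes with the highest and lowest fold change in each related list (or the highest and lowest gene where none was called), the 3 genes most like each member with a mean of at least 1 CPM, the neighbors of *Myf5* and *Myf6*, and the 2 most abundant genes of each marker list. Other genes named were chosen after their values were seen. Some genes that this rule selects are not reported here.

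Both tests were checked on simulated data with known changes. Between genotypes (15207 genes), a log2 change of 3 was called in 83 of 100 genes, one of 6 in 96 of 100, and 14 unchanged genes were called. Between *Nf1*/*p53* dKO lines (14690 genes), a log2 change of 1 in 1 line was called in 90 of 100 genes and one of 2 in 100 of 100.

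Alternatives were DESeq2, DESeq2 size factors, no filter, replicate blocks and leaving out each line or culture number.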

Additional observations from a re-analysis of the deposited data

Results flagged for a closer look

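Over 92 groups of 9 cultures, 3 genes had 1 culture whose gap to the nearest other culture exceeded the 95% limit of Dixon's test. For independent values, chance alone passes this limit in about 1 in 20 groups. The 9 cultures come from 3 lines, so that rate need not hold here. In *Nf1*/*p53* dKO line 2 culture 1, *Myh4* was at 29.7 CPM against 13.5 CPM in the next culture, and *Pvalb* at 4.23 CPM against 2.21 CPM. In *Nf1*/*p53* dKO line 3 culture 1, the endothelial gene *Tek* was at 1.74 CPM against 0.919 CPM. No member was among them, but where lines differ widely, as for *Myod1*, a single culture can hardly stand out.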

How the results depend on the processing

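The 7 related genes called between genotypes became 34 with DESeq2 on the 6 lines, 64 with DESeq2 on the 18 cultures, 7 with DESeq2 size factors, 10 without the filter and 0 with the line number as a replicate block (37 at an unadjusted p under 0.05), and 0 to 5 without 1 line (5, 1 and 3 without *Nf1*/*p53* dKO line 1, 2 or 3, and 0 without any *Nf1*/*Cdkn2a* dKO line). All genes called went from 274 to 2060 with DESeq2 on the 6 lines and 7186 on the 18 cultures, to 0 with the replicate block (2740 at an unadjusted p under 0.05) and to between 0 and 172 without 1 line, the 0 being without *Nf1*/*Cdkn2a* dKO line 1, with 2668 at an unadjusted p under 0.05. Over all genes tested, same-numbered lines did not deviate together (correlations -0.0988, -0.133 and -0.0848). Correlations over all genes cannot tell whether the number pairs lines for a smaller group of genes, which was not tested. The replicate block on culture number left 4 members called between *Nf1*/*p53* dKO lines and 1 between *Nf1*/*Cdkn2a* dKO lines, as without it. The other alternatives gave 4 to 6 and 1, DESeq2 adding *Msc* and *Mymk*, and leaving out a culture number gave 4 to 5 and 1. The causes were not tested. No alternative reversed a fold change among 121 for the named related genes, of which 42 lost and 6 gained the call. *Heyl* and *Chrnd*, with at most 3 counts in the *Nf1*/*Cdkn2a* dKO, could hardly reverse. Members were chosen on the difference between genotypes, and *Myf5* and *Myod1* had at most 1 count in the *Nf1*/*Cdkn2a* dKO. That none reversed among 36 alternatives for members is therefore given as a description. Of these 36, 4 moved by more than 1 SD: the fitted log2 fold change of *Myf5*, -11.91, was -11.48, -11.42 and -13.87 without *Nf1*/*Cdkn2a* dKO line 1, 2 or 3, and that of *Myod1*, -15.21, was -9.12 without *Nf1*/*p53* dKO line 3. Depth limits *Myf6*, *Myog*, *Pax3*, *Pax7*, *Msc*, *Mymk* and *Mymx*, which have few counts.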
